A study of Mus musculus with 3 samples.

Results

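The genes described here encode the machinery that brings proteins into mitochondria and folds, cuts or degrades them there. The list was chosen by function and holds 41 genes. Of these, 37 were read on the arrays by 74 probe sets whose annotation named no other gene, out of 34945 probe sets with 1 gene and 11341 genes kept on the arrays as a whole. Each gene was read through its brightest probe set, and genes were kept if the mean log2 signal of that probe set lay in the upper 50% of probe sets, at a signal of 76.9 or more. All 37 genes read were kept, 69 of their probe sets passed the same level and 5 did not. Tomm5, Tomm6 and Dnajc19 were named only by probe sets shared with another gene, and no probe set naming Immp2l was in the annotation used. These 4 genes therefore have no expression value here.

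Livers came from male C57BL/6J mice that received a control diet (Control, 10% of energy as fat, diet D12450B), a high-fat diet (HF, 60%, diet D12492) or that high-fat diet with sodium ferrous citrate, an iron salt, at 0.023% by weight (HF+SFC). The diets began at 6 weeks of age and were given for 15 weeks, after which tissue was taken from fasted mice. The labels state an age of 21 months for every group. Those times add up to the same number in weeks, so that the label and the times differ only in the unit. The cDNA of all mice of a group was mixed and measured on 1 Affymetrix whole-genome mouse expression array, which gives 3 arrays in all. With a single pool per diet there was no spread between animals to test against, so the values below describe these pools and carry no p-value. Signals are Affymetrix MAS5 values on a linear scale, which the authors had set to the same trimmed mean on every array.

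Nearly all mitochondrial proteins are made in the cytosol and must be imported. The TOM complex of the outer membrane is the common entry gate. Proteins with a cleavable presequence then pass the TIM23 translocase and are pulled inward by a motor built on the mitochondrial Hsp70, Hspa9, whereas metabolite carriers are led by small TIM chaperones to the TIM22 translocase. In the matrix, presequences are cut off, the Hsp60 and Hsp10 chaperonin folds the new proteins, and the proteases Lonp1 and ClpXP remove those that fail. Hepatocytes are rich in mitochondria, and the liver is a main site of this traffic.

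The 37 genes were bright on these arrays. Their mean signals ran from 438 for Tomm40l, a paralog of the TOM channel, to 17736 for Hspd1, the Hsp60 chaperonin, with a median of 2595 against 580 over all kept genes, and all 37 lay in the upper 25% of probe sets. These are levels of probe sets, which bind with different strength and were not compared between genes. In place of a replicate error, the spread between probe sets of one gene was used. In the upper 25% of signal this SD of log2 ratios was 0.20 between HF and Control and 0.17 between HF+SFC and HF, and among the 22 members with more than 1 kept probe set it was 0.19 for each. It contains differences between transcripts and cross-hybridisation besides noise.

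**Figure D1:**
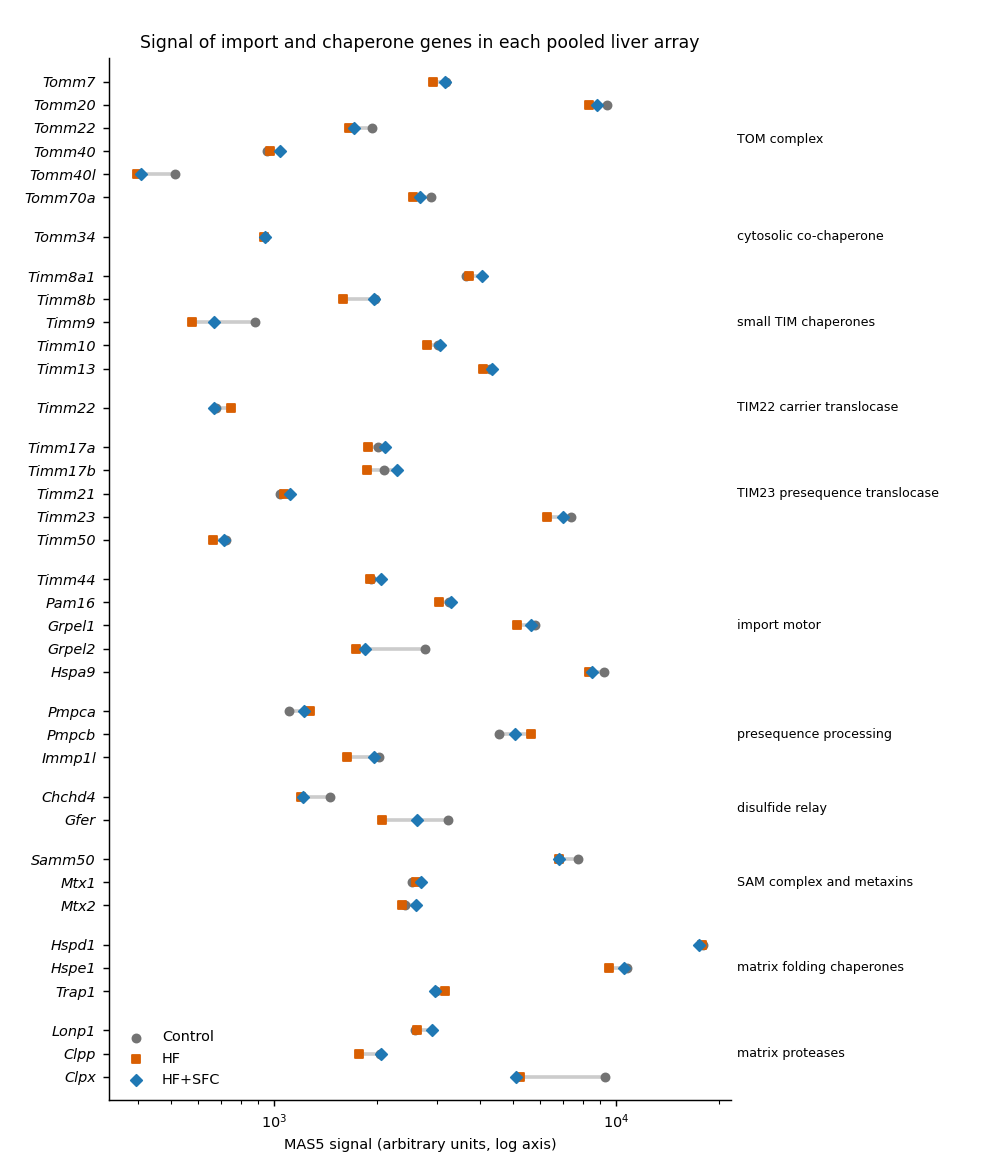
MAS5 signal (x axis, log scale) of the 37 import and chaperone genes (y axis, by role) in the 3 pooled arrays, with grey lines from the lowest to the highest array. Clpx, Grpel2, Gfer and Timm9 show the widest gaps between Control and HF, and Clpx had 9295 in Control against 5242 in HF and 5098.5 in HF+SFC.

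HF was compared with Control to see how the import genes differed after the high-fat diet. In HF 4 of 37 genes were at least 1.5-fold lower and 0 were higher. The lower genes were Clpx, the unfolding subunit of the ClpXP protease, Grpel2, a nucleotide exchange factor of the import motor, Gfer, the oxidase of the disulfide relay in the intermembrane space, and Timm9, a small TIM chaperone. Of all kept genes 5.84% passed 1.5-fold downward and 11.3% upward, and in the upper 25% of signal, where all members lay, the shares were 4.14% and 6.5%. The members at least 1.5-fold lower made up 10.8% of the 37. The median log2 ratio of the 37 genes was -0.13 (quartiles -0.22 and -0.01), with 28 genes below 0, against a median of 0.03 over all kept genes, of which 46.9% were below 0. The difference of 24 genes from 0 was less than the SD between probe sets. The median stayed negative under each scaling tried. Centring the arrays on their medians moved the median of all kept genes to -0.07 and that of the members to -0.23, and changed the counts of all kept genes beyond 1.5-fold from 1282 upward and 662 downward to 980 and 954.

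Markers of other liver cell types also differed between the pools, and in bulk RNA fewer cells of a type and less RNA per cell cannot be told apart. The liver label was borne out by hepatocyte markers, such as Alb with a signal of 54077 in Control. Of 11 hepatocyte markers 10 were below 0 in HF over Control (median -0.09), with ratios from -0.61 for Hnf4a to 0.44. The signals of the 11 summed to 468001 in Control, with 432891 for HF and 435658 for HF+SFC. All 15 macrophage markers were above 0 in HF over Control (median 0.50) and all 15 below 0 in HF+SFC over HF (median -0.46), with sums of 25953, 36120.0 and 26048 in the same order. All 13 stellate cell markers were likewise above 0 (median 0.78) and then below 0 (median -0.39), with sums of 15581, 24638 and 18394. Of 11 endothelial markers 7 were above 0 in HF over Control (median 0.09) and 10 below 0 in HF+SFC over HF (median -0.24), with sums of 13186, 14322 and 12442. Among 10 lymphocyte and 5 cholangiocyte markers read, 3 of each reached the kept level. Of 11 clock genes 4 passed 1.5-fold upward and 3 downward in HF over Control, and Dbp, a clock output gene, stood at 1.94. The Affymetrix 3′ and 5′ control probe sets gave ratios (3′ over 5′) between 1.65 and 1.84 for Actb and between 0.680 and 0.708 for Gapdh. The part of these cell types, clock phase or RNA quality in the ratios of the import genes was not tested.

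**Figure D2:**
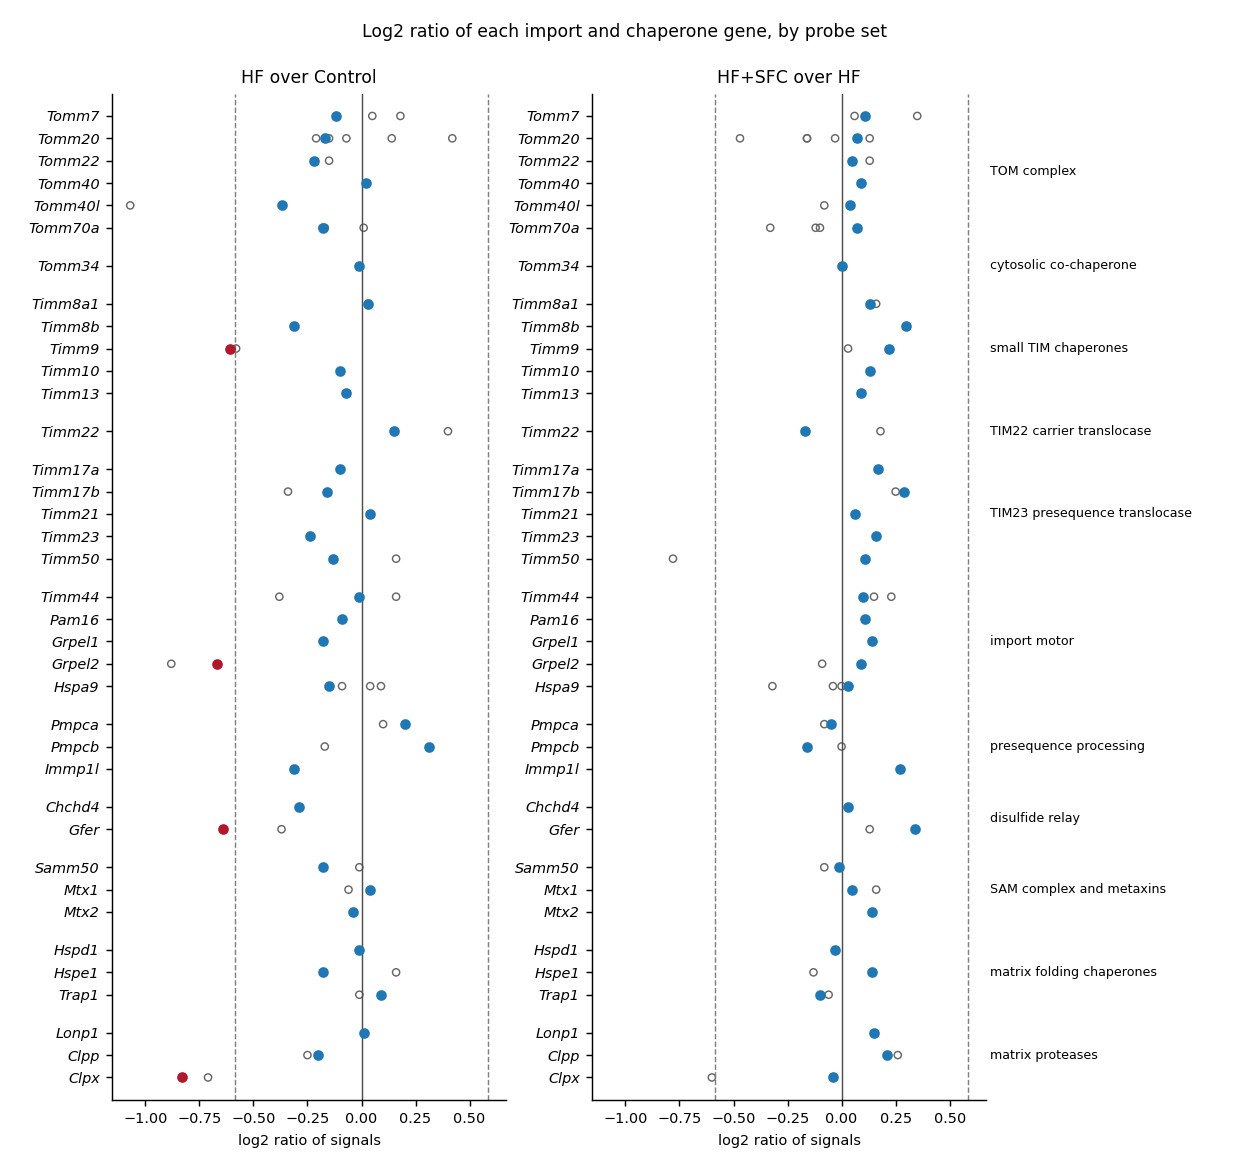
Log2 ratio (x axis) of each of the 37 genes (y axis, by role) with HF over Control in the left panel and HF+SFC over HF in the right one. Filled points are the brightest probe set, red where it lies beyond 1.5-fold (dashed lines), and open circles are other kept probe sets; among filled points Clpx at -0.83 lies farthest left, open circles of Tomm40l at -1.07 and Grpel2 at -0.88 lie beyond it, and no filled point passes 1.5-fold on the right.

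Clpx differed most from Control. Its signal was 9295 (Control), 5242 (HF) and 5098.5 (HF+SFC). Control was thus apart from both high-fat arrays, which differed by -0.04 on the log2 scale. The log2 ratio of HF over Control was -0.83, a signal 1.77-fold lower, and 2.75% of kept genes had a lower ratio. A second, dimmer probe set stood at -0.71, so that all kept probe sets of Clpx passed 1.5-fold. Between HF+SFC and HF the probe sets parted, at -0.04 for the brighter and -0.60 for the dimmer one, and over Control they stood at -0.87 and -1.31 in HF+SFC. Clpp, the proteolytic partner that forms the chamber on which ClpX docks, had 2037 (Control), 1770.4 (HF) and 2050.4 (HF+SFC). Its ratio of HF over Control was -0.20, with the other probe set at -0.25, and that of HF+SFC over HF was 0.21, with 0.26. In HF over Control the 2 subunits of the protease differed from each other by 0.62 on the log2 scale. Lonp1, the other ATP-dependent protease of the matrix, was level between Control with 2586 and HF with 2613 (log2 ratio 0.01), and had 2908 in HF+SFC.

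Grpel2, in the import motor, came next. It had 2757 (Control), 1738 (HF) and 1853 (HF+SFC), so that Control was again the highest. It was 1.59-fold lower in HF, with probe sets at -0.67 and -0.88. Grpel1, its paralog and the main exchange factor for Hspa9, had 5808 (Control), 5131 (HF) and 5646 (HF+SFC), with a log2 ratio of HF over Control of -0.18. The paralogs thus differed by 0.49. Hspa9 itself, the motor Hsp70, had 9233 (Control), 8314 (HF) and 8504 (HF+SFC), and its 4 kept probe sets lay between -0.15 and 0.09 in HF over Control. The other motor subunits read were also close to Control. Timm44, which ties the motor to the TIM23 channel, had 1928 (Control), 1914 (HF) and 2053 (HF+SFC), but its 3 probe sets spread from -0.38 to 0.16. Pam16, a regulator of the motor, stood at -0.09.

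Chchd4 and Gfer form the disulfide relay that traps small cysteine-rich proteins in the intermembrane space, among them the small TIM chaperones. Gfer had 3226 (Control), 2069.8 (HF) and 2616 (HF+SFC). It was 1.56-fold lower in HF by this probe set, and the dimmer one stood at -0.37, inside 1.5-fold. Chchd4, the import receptor of the relay, had 1460.2 (Control), 1198 (HF) and 1221 (HF+SFC) and a log2 ratio of HF over Control of -0.29, beyond the SD between probe sets but inside 1.5-fold. Both relay genes were thus lower in HF than in Control. The ratio of HF+SFC over HF was 0.34 for Gfer, the highest of the 37 genes, with 0.13 for its other probe set, and 0.03 for Chchd4.

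The small TIM proteins, which work as rings that chaperone carriers across the intermembrane space, differed among themselves. Timm9 had 879.8 (Control), 575 (HF) and 669 (HF+SFC). It was 1.53-fold lower in HF, and its probe sets at -0.61 and -0.58 lay on either side of 1.5-fold, which is 0.58 on the log2 scale. Timm10, with which Timm9 forms its ring, had 3020.2 (Control), 2809.7 (HF) and 3064 (HF+SFC), a ratio of HF over Control of -0.10. The partners differed by -0.51. Timm8b had 1979.7 (Control), 1596 (HF) and 1969 (HF+SFC), so that HF alone was low, by -0.31 over Control and with 0.30 for HF+SFC over HF. Timm8a1, its paralog, had 3641 (Control), 3708 (HF) and 4071 (HF+SFC), and Timm13, the ring partner of both, stood at -0.07 in HF over Control.

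In the outer membrane, the TOM genes lay slightly below Control by their brightest probe sets, with 5 of 6 below 0 and a median of -0.18 in HF over Control. Of the 5 TOM genes with more than 1 kept probe set, 2 had all of them below 0 and 0 had all above. Tomm20, a presequence receptor, had 9441 (Control), 8365 (HF) and 8783 (HF+SFC). Its 6 probe sets ran from -0.21 to 0.42 in HF over Control and from -0.47 to 0.13 in HF+SFC over HF, so that their spread was wider than the ratio of -0.17 by the brightest one. Tomm70a, the receptor for carriers handed over by cytosolic chaperones, had 2884.5 (Control), 2551 (HF) and 2674 (HF+SFC). In HF+SFC over HF its brightest probe set gave 0.07 and the other 3 kept ones -0.10 to -0.33. Tomm22, the central receptor, stood at -0.22 and Tomm7, a small stabilising subunit, at -0.12. The other kept probe sets of Tomm7 gave 0.05 and 0.18. Tomm40, the channel, was level with 957 in Control and 973 in HF, and had 1039 in HF+SFC. Tomm40l, an alternative form of the channel, had 516 (Control), 398 (HF) and 409.9 (HF+SFC). Its brightest probe set gave -0.37 in HF over Control and its dimmer one -1.07, with 270.3 (Control), 129 (HF) and 122 (HF+SFC), so that whether Tomm40l passed 1.5-fold depended on the probe set. Tomm34, a cytosolic co-chaperone of import, was level at -0.01.

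The sorting complex of the outer membrane differed little. Samm50, which inserts barrel-shaped proteins, had 7727 (Control), 6830.1 (HF) and 6799 (HF+SFC), a ratio of HF over Control of -0.18 with the other kept probe set at -0.01. The metaxins Mtx1 and Mtx2, its partners, stood at 0.04 and -0.04. Mtx1 had 2528.5 (Control), 2604 (HF) and 2693 (HF+SFC), and Mtx2 had 2421 (Control), 2362 (HF) and 2609.8 (HF+SFC).

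In the TIM23 translocase 4 of 5 genes read were below 0 in HF over Control, with a median of -0.13. Timm23, the channel, had 7404 (Control), 6277 (HF) and 7022 (HF+SFC). HF was the lowest array, by -0.24 from Control, and HF+SFC stood 0.16 above HF. Timm17a and Timm17b are alternative forms of one subunit. Timm17a had 2011 (Control), 1878 (HF) and 2111 (HF+SFC). Timm17b had 2096 (Control), 1872 (HF) and 2295 (HF+SFC), with probe sets at -0.16 and -0.34 in HF over Control and at 0.29 and 0.25 in HF+SFC over HF. The forms differed by 0.06 and -0.13 in these comparisons, less than the SD between probe sets. Timm50, the receptor, stood at -0.13, but its second probe set gave 0.16 in HF over Control and -0.78 in HF+SFC over HF, against 0.11 by the brighter one. Timm21, which links TIM23 to the respiratory chain, stood at 0.04. Timm22, the carrier translocase, had 677 (Control), 748.5 (HF) and 666.5 (HF+SFC) and was among the few genes above Control in HF, at 0.15.

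The genes that stood highest in HF were those of presequence cleavage. Pmpcb, the catalytic subunit of the processing peptidase, had 4565 (Control), 5657 (HF) and 5073 (HF+SFC), and Pmpca, the substrate-binding subunit, had 1108 (Control), 1275.5 (HF) and 1228.5 (HF+SFC). The log2 ratios of HF over Control were 0.31 and 0.20. For Pmpca the other probe set was 0.10, whereas for Pmpcb it was -0.17, so that only the subunit with the smaller ratio kept its sign across probe sets. Immp1l, a peptidase of the inner membrane, ran the other way, with 2031 (Control), 1636 (HF) and 1966 (HF+SFC), at -0.31 in HF over Control and 0.27 in HF+SFC over HF.

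Hspd1 and Hspe1, the chaperonin and its lid, are transcribed in opposite directions from a shared region, and both also belong to the heat shock response. Hspd1 had 17942 (Control), 17804 (HF) and 17465 (HF+SFC), a range within -0.04 on the log2 scale. Hspe1 had 10789 (Control), 9519.5 (HF) and 10521 (HF+SFC), and its probe sets at -0.18 and 0.16 in HF over Control differed in sign. Trap1, the Hsp90 of mitochondria, had 2972.5 (Control), 3174 (HF) and 2963 (HF+SFC). By their brightest probe sets the folding chaperones of the matrix differed from Control by less than the SD between probe sets.

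Cytosolic chaperones were set beside them, because precursors are carried to TOM70 by cytosolic Hsp70 and Hsp90. Of 16 cytosolic heat shock genes 5 were at least 1.5-fold lower in HF than in Control and 0 were higher, with 14 below 0 and a median of -0.45, against 5.84% lower, 11.3% higher and a median of 0.03 over all kept genes. Hspa1b, an inducible Hsp70, had 5879 (Control), 1743 (HF) and 1249 (HF+SFC). It was 3.37-fold lower in HF, although it has a near-identical neighbour, Hspa1a, with which signal may be shared. Hsph1, an exchange factor for Hsp70, was 1.83-fold lower, Chordc1, an Hsp90 co-chaperone, 1.78-fold lower and Hspa8, the constitutive Hsp70, 1.52-fold lower by its brightest probe set, with its probe sets between -0.60 and -0.10. Hspa1a was 1.56-fold lower at a signal of 181 in Control and 116 in HF. Of 8 cytosolic delivery factors, some of which are also in the heat shock list, 7 were below 0 and 1, Hspa8, was at least 1.5-fold lower (median -0.42). St13, a co-chaperone of Hsp70, stood at 0.02. From HF to HF+SFC 0 of the 16 heat shock genes passed 1.5-fold, with a median of -0.08. Hspd1, Hspe1, Hspa9 and Trap1, at -0.18 to 0.09 in HF over Control, lay above the median of the cytosolic list by their brightest probe sets. Grpel2 of the import motor and Clpx of the ClpXP protease, at -0.67 and -0.83, lay below that median.

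**Figure D3:**
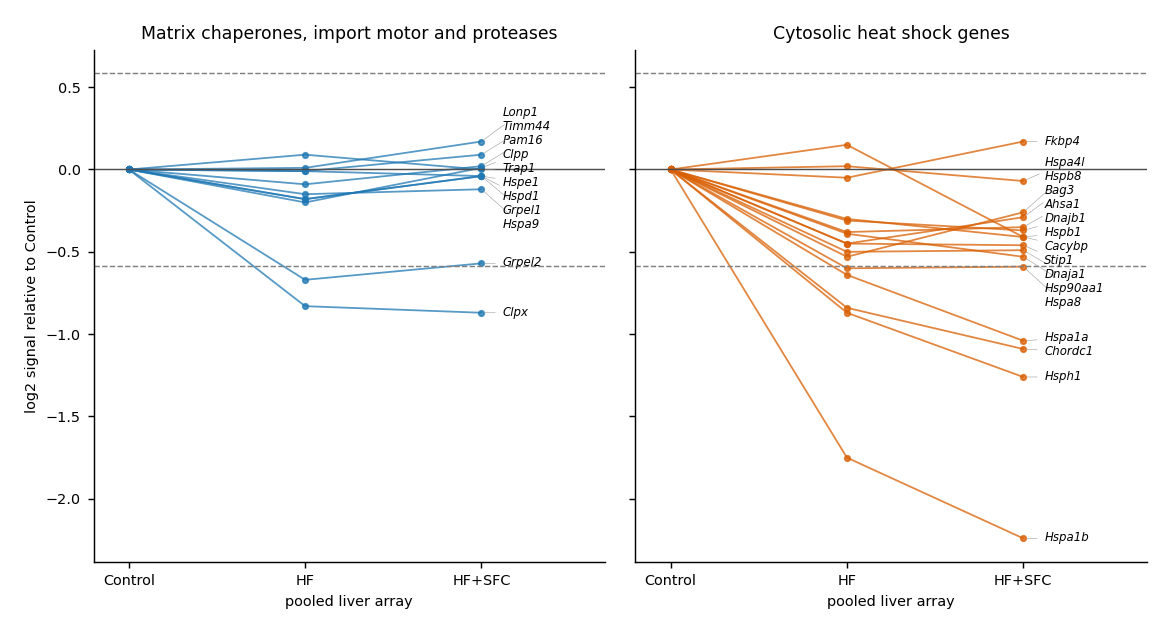
Log2 signal relative to Control (y axis) in the 3 pooled arrays (x axis) for the matrix chaperones, import motor and proteases (left, 11 genes) and for the cytosolic heat shock list (right, 16 genes); lines are genes by their brightest probe set and dashed lines mark 1.5-fold. On the left, Clpx and Grpel2 lie apart from genes near 0, and on the right Hspa1b lies lowest at -1.75 in HF and -2.24 in HF+SFC.

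Promoter sequence is given for Hspe1 and Hspa1b, a matrix and a cytosolic heat shock gene, since the heat shock factor binds inverted repeats of a short motif, and for Clpx and Timm9 as examples of the genes lower in HF. The windows are those of RefSeq (GRCm38.p6), 250 bases before to 50 bases after the start, and 36 of the 41 genes had at least 1. Tomm6, Dnajc19 and Immp2l, which have no expression value here, were among those 36. Capitals mark every match on either strand to the heat shock element letters GAANNTTC and TTCNNGAA, which may overlap each other, the E-box CACGTG, the NRF1 core TGCGCA and the CCAAT box. The windows lie at chr9:65294010-65294309 on the plus strand for Clpx, chr12:71136626-71136925 on the minus strand for Timm9, chr1:55087898-55088197 on the plus strand for Hspe1 and chr17:34959189-34959488 on the minus strand for Hspa1b.

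Clpx: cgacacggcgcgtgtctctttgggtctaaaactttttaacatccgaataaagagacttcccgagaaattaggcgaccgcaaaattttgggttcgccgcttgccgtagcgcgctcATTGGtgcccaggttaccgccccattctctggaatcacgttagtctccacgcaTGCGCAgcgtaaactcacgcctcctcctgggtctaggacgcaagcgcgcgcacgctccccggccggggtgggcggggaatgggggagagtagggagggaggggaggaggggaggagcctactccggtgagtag

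Timm9: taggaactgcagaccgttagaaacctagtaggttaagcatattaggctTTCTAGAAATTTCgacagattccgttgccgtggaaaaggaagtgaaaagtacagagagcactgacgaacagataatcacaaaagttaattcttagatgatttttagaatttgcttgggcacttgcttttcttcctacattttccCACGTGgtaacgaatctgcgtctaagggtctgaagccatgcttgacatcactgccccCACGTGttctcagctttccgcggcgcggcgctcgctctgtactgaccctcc

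Hspe1: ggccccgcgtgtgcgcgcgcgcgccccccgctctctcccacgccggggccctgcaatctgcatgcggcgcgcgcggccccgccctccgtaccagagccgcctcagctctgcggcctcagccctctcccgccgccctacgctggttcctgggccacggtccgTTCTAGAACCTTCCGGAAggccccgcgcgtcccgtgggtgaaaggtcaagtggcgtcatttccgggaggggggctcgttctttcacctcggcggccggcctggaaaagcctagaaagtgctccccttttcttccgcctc

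Hspa1b: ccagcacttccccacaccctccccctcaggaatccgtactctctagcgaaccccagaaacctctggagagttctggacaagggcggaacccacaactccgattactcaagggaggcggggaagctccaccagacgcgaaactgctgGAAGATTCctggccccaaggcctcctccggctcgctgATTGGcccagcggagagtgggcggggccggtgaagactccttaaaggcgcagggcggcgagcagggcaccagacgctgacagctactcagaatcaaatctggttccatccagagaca

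The Hspe1 window overlaps that of a start of Hspd1 on the other strand by 285 bases and holds 3 overlapping matches to the heat shock element, and the Hspa1b window holds 1. The Timm9 window holds 2 overlapping matches, joined in 1 run of capitals, and 2 E-boxes, and the Clpx window holds the NRF1 core and a CCAAT box and 0 heat shock matches. The window of Gfer, also lower in HF and not printed, holds 0 matches to any of these motifs. Of all 32851 windows 15.1% held a heat shock match, against 8 of 39 windows of the import and chaperone genes (20.5%) and 10 of 18 windows of the cytosolic heat shock genes (55.6%). Those 8 include the overlapping windows of Hspd1 and Hspe1, so that 1 stretch was counted for both genes. The NRF1 core was in 7.76% of all windows and in 8 of the 39 (20.5%), the E-box in 7.15% and 6 of the 39 (15.4%), and CCAAT in 37.4% and 13 of the 39 (33.3%). Hspe1 and Hspa1b each carried heat shock letters, while their log2 ratios of HF over Control were -0.18 and -1.75. A match describes the letters and not a bound site.

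HF+SFC was compared with HF to describe what accompanied iron on top of the high-fat diet. In this comparison 0 of 37 import and chaperone genes passed 1.5-fold in either direction, where 2.88% of all kept genes were higher and 5.33% lower, and 0.571% and 1.11% in the upper 25% of signal. A count of 0 in 37 is close to those shares and is no result about these genes. The median log2 ratio was 0.09 (quartiles 0.03 and 0.14), a 1.07-fold difference, with 30 genes above 0, against a median of -0.01 and 48.8% above 0 over all kept genes. For 31 genes the ratio was smaller than the SD between probe sets. The median was positive under each scaling tried, at 0.09 under quantile and lowess scaling. Under median centring it was 0.21, and the median of all kept genes 0.11. Of all kept genes 327 passed 1.5-fold upward and 605 downward, and 535 and 397 did so under that centring, 453 and 459 under quantile scaling.

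The genes with the highest ratios in HF+SFC over HF were Gfer at 0.34, Timm8b at 0.30, Timm17b at 0.29 and Immp1l at 0.27. Each of these was below Control in HF, and both comparisons use the same HF array, so that the values are not independent. The lowest were Timm22 at -0.17, Pmpcb at -0.16, Trap1 at -0.10 and Pmpca at -0.05. Timm22 gave 0.18 by its second probe set. By role, the 6 TOM genes, 5 small TIM chaperones, 5 TIM23 genes and 5 motor genes read were all above 0 by their brightest probe sets, with medians of 0.07, 0.13, 0.16 and 0.10, as were both relay genes. Of 3 presequence processing genes 1 was above 0 (median -0.05), as was 1 of 3 matrix folding chaperones (median -0.03), and 2 of 3 in the sorting complex (median 0.05) and 2 of 3 matrix proteases (median 0.15) were. With the median over the probe sets of each gene, 25 of the 37 genes were above 0 in place of 30. Tomm20, Tomm40l, Tomm70a, Timm50 and Hspa9 were then below 0, and Timm22 was above it at 0.01. Grpel2, with probe sets at 0.09 and -0.09, had a median that rounds to 0. In the 22 genes with more than 1 kept probe set, all probe sets were above 0 in 9 and below 0 in 5. Of the 5020 such genes among all kept genes, 1015 had all probe sets above 0 and 1244 all below 0. Without probe sets whose identifier ends in _s_at or _x_at, Hspe1 went from 0.14 to -0.13.

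**Figure D4:**
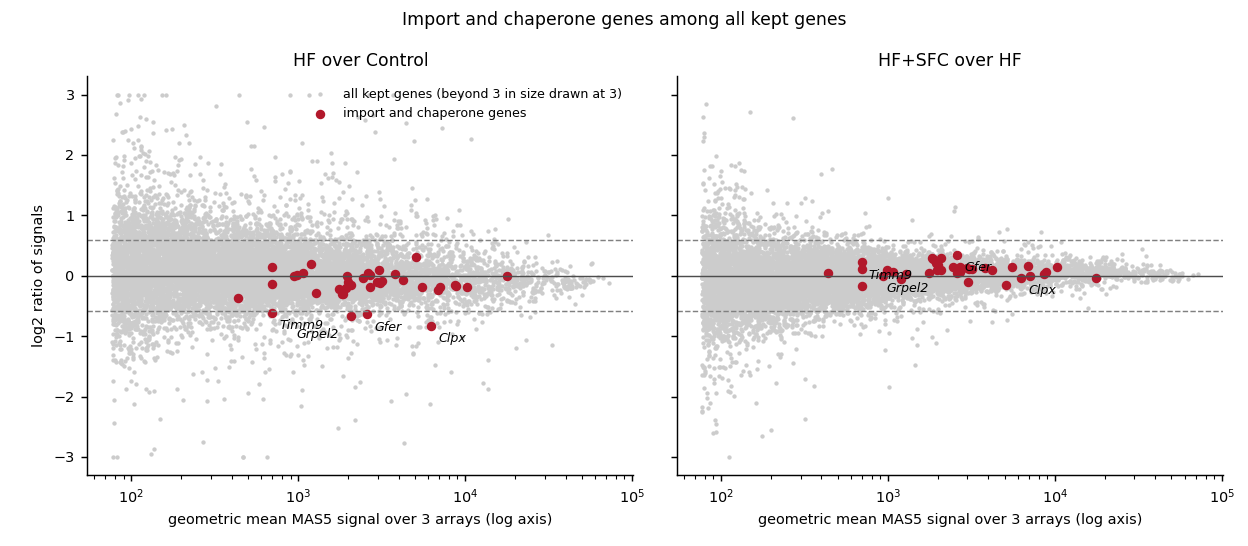
Log2 ratio (y axis) against the mean signal of each gene (x axis, geometric mean on a log scale) for all kept genes (grey) and the 37 import and chaperone genes (red), with HF over Control in the left panel and HF+SFC over HF in the right one; dashed lines mark 1.5-fold. Ratios of dim genes spread more than those of bright genes, all red points have mean signals of 438 or more, and 4 lie below the lower line on the left and 0 beyond either line on the right.

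In HF+SFC over Control 1 of 37 genes, Clpx, was at least 1.5-fold lower and 0 were higher, against 6.88% and 9.2% of all kept genes. Clpx was 1.82-fold lower. Grpel2 stood just inside, at 1.49-fold lower, with its other probe set at -0.98. The median of the 37 was -0.01, with 15 above 0 and 22 below, and its sign turned under median centring. Timm9 stood at -0.40, Tomm40l at -0.33, Gfer at -0.30 and Chchd4 at -0.26. At the other end Lonp1 stood at 0.17, Timm8a1 at 0.16 and Pmpca and Pmpcb at 0.15.

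Other genes of the same pathways are given beside the shares of all kept genes in HF over Control, 11.3% upward and 5.84% downward. Of 19 further import and insertion genes kept, 2 passed 1.5-fold upward and 1 downward, close to those shares (median 0.14). Agk, a lipid kinase and TIM22 subunit, had 169.9 (Control), 344.5 (HF) and 190.2 (HF+SFC), a dim signal at which ratios vary more. Its kept probe sets stood at 1.02 and 1.39 in HF over Control and at -0.86 and -0.81 in HF+SFC over HF. Hscb, a co-chaperone of iron-sulfur cluster transfer, was 1.58-fold higher and Xpnpep3, an aminopeptidase, 1.54-fold lower. In HF+SFC over HF 1 of the 19, Agk, was lower, by 1.81-fold, and 0 were higher. Of 7 genes of MICOS, the complex that shapes cristae, 2 were higher in HF than in Control, Chchd6 by 1.68-fold and Apool by 1.53-fold, and 0 passed in HF+SFC over HF. Chchd6 was dim as well, with 133.6 (Control), 224.0 (HF) and 152.4 (HF+SFC). Of 11 inner membrane proteases and prohibitins 1, Spg7, was 1.99-fold higher in HF (median of the 11, 0.23), with 0 beyond 1.5-fold in HF+SFC over HF. A count of 1 in 11 is no more than the share of all kept genes, and 2 of 7 in MICOS rests on few genes.

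Of 12 genes of the integrated stress response, which in mitochondrial stress accompanies the induction of matrix chaperones, 1 passed 1.5-fold upward and 2 downward in HF over Control (median -0.05), where 11.3% and 5.84% of all kept genes did. Fgf21 stood at -1.80 and Atf5, a factor linked to the mitochondrial unfolded protein response, at -0.75, from 12657.5 in Control to 7518 in HF. Phgdh, a serine synthesis enzyme, stood at 1.67 at a dim signal of 69.5 in Control, and its 3 probe sets ran from -0.53 to 1.67. From HF to HF+SFC 1 gene was higher, Asns at 0.87, and 1 lower, Phgdh at -1.69, with probe sets from -1.69 to 0.90. Asns was also dim and rested on 1 kept probe set, with 121.2 (Control), 117.7 (HF) and 215.1 (HF+SFC).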

How the data were processed

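Hepatic cDNA of all mice of a group was mixed by the study, and the labelled pool was hybridised by the authors to 1 Affymetrix array per group. The deposited intensities are MAS5 signals on a linear scale per the labels (version not given in the sources used here), and the authors had scaled each array to a 2% trimmed mean of 500.0. Differences in total signal were therefore removed before deposit. Control probe sets (64) were left out. The platform annotation named genes, and Entrez identifiers of the 37 genes were matched to RefSeq (GRCm38.p6), used for names and promoters. Log2 ratios between arrays were taken with no pseudocount, and 1.5-fold was the threshold of the study. Members, lists and the rule for named genes (every member, and of other lists up to 4 genes beyond 1.5-fold per comparison) were chosen with earlier results of these data known. Genes named outside that rule, Alb and St13, were chosen after their values were seen. Ratios of dim probe sets spread widely, and 1 array per group limits the precision. Alternatives were quantile, median and lowess scaling (fraction 0.3), other filters, a pseudocount of 16, the median over probe sets, fewer probe sets and a 2-fold threshold. Python 3.11.15, pandas 2.3.3 and statsmodels 0.14.6 were used, and the steps were tested on simulated data.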

Additional observations from a re-analysis of the deposited data

How the results depend on the processing

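The median log2 ratio of the 37 genes in HF over Control, -0.13, was -0.10 under quantile scaling, -0.23 under median centring and -0.09 under lowess scaling. It was -0.09 as the median over the probe sets of each gene, and did not change by filter or pseudocount. The filters could not change any value of the 37 genes, since the brightest probe set of each lay in the upper 25% of signal. A pseudocount of 16 is small beside their mean signals of 438 or more. Without probe sets of suffix _s_at or _x_at 35 of the genes were left, with a median of -0.10. The 4 genes lower in HF, Clpx, Grpel2, Gfer and Timm9, passed 1.5-fold under every alternative except the median over probe sets, where Gfer did not (-0.51) and Tomm40l did (-0.72), and a 2-fold threshold, which 0 passed. In HF+SFC over HF the median was 0.21 under median centring and 0.07 for the 35 genes left without probe sets of those suffixes. In that comparison 0 genes passed 1.5-fold under every alternative. In HF+SFC over Control the median turned to 0.01 under median centring, the count of lower genes became 3 with the median over probe sets, and 0 passed 2-fold. Of the values of single genes under the alternatives, 869 moved by less than the SD between probe sets and 13 by more, and the cause was not tested. The 869 include the values under other filters, which could not move. They also include values under median centring, which shifts every gene of a comparison by the same amount. The count of 869 is therefore in part fixed by the settings. No paired analysis was possible because each group had 1 array. The number of arrays, 1 per group, limits what can be shown: no difference was checked against the spread between animals.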
